A study of Mus musculus with 8 samples.

Results

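DNA methylation was described at 5 mouse loci whose imprinting is known to be set by methylation of the paternal chromosome: H19, Igf2, Dlk1, Meg3 and Rasgrf1. CG cytosines were taken from each gene body with 10 kb upstream and 5 kb downstream, and for Rasgrf1 with 35 kb upstream, since its control element lies far from the gene. These windows held 506 CG cytosines with at least 10 reads in at least 1 mouse, of 1411453 in the whole data set, and 74 with at least 10 reads in each of 8 mice, of 176951. H19 gave 32 of the 506, Igf2 153, Dlk1 111, Meg3 89 and Rasgrf1 121.

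Liver was taken from 8 mice, with 1 mouse of each sex for C57BL/6J, here B6, for DBA/2J, here DBA, and for their reciprocal F1 crosses, BXD with a B6 mother and DXB with a DBA mother. All mice were 16 weeks old, had fasted for 16 h and carried no transgene or treatment that the sources name. Reduced representation bisulfite sequencing (RRBS) cuts DNA with MspI at CCGG, and bisulfite then turns unmethylated cytosines into thymine, so a cytosine's methylation level is the percentage of its reads left unconverted. Each strain and sex was 1 mouse, so the spread behind the p-values mixes strain, cross, sex and library with differences between single livers.

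In an imprinted gene only the copy from 1 parent is used. At the H19 and Igf2 pair on chromosome 7, a control region upstream of H19 is methylated on the chromosome from the father. This keeps away CTCF, a protein that insulates Igf2 from shared enhancers, so that the growth factor Igf2 is made from the paternal copy and the non-coding RNA H19 from the maternal one. At the Dlk1 and Meg3 pair on chromosome 12, an intergenic region upstream of Meg3 is methylated on the paternal copy. Dlk1, a membrane protein that inhibits differentiation, is made from the paternal copy, and Meg3, a non-coding RNA, from the maternal one. At Rasgrf1 on chromosome 9, which encodes an exchange factor for Ras, a methylated element far upstream marks the paternal copy. A level near the middle of the scale in DNA of a whole liver is what methylation of 1 chromosome would give. It is also what methylation in a part of the cells would give, and these cannot be told apart without reads sorted by parent.

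The stretches that the results turn on are shown first, most of them with intermediate levels, in mm9 and 5′ to 3′ along the gene, with capitals at the CGs that had at least 10 reads in at least 3 mice. For H19 they are a block of 3 CGs in the upstream control region (chr7:149767086-149767298, -3250 to -3038 bases from the gene start, minus strand) and a block of 8 CGs at the start itself (chr7:149763797-149764055, minus strand).
H19 upstream block: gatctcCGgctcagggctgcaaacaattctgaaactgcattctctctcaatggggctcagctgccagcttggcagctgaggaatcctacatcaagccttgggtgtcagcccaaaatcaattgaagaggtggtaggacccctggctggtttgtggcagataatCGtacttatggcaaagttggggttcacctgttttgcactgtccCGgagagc
H19 start block: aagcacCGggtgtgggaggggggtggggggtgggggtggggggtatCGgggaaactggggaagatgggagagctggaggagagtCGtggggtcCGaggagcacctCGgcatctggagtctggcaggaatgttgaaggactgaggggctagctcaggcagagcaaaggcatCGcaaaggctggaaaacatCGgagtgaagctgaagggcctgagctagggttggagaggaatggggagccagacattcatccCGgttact

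The upstream block held no CG other than those 3. The letters CGCGNGGNG, searched on both strands without counting their overlap with other motifs, occurred at 3 places in the window of H19, all upstream, at 5 in that of Igf2, at 3 in that of Rasgrf1 and at 2 in that of Dlk1. Of 37273 windows of 300 bases at gene starts (250 bases before to 50 after), 7.17% held them, a share that does not apply to the longer windows of the loci. The 3 places at H19 are shown with the matched letters in capitals, along H19.
H19 at -2170 bases: cagacgatgcCGCGTGGTGgcagtacaat
H19 at -2625 bases: cggatgctacCGCGCGGTGgcagcatact
H19 at -3895 bases: cgggagttgcCGCGTGGTGgcagcaaaat
These runs lie at chr7:149766208-149766236, chr7:149766663-149766691 and chr7:149767933-149767961. None of them held a measured CG, and the nearest measured CG was 870, 415 and 655 bases away. The methylation of these letters themselves was therefore not measured here.

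For the chromosome 12 pair, a stretch of a coding exon of Dlk1 (chr12:110698035-110698235), the start of Meg3 (chr12:110779041-110779296, -170 to 85 bases from the start) and a short run in a Meg3 exon (chr12:110782981-110783042) are given, all on the plus strand. In the last of these, the third capital pair is a CG that differed between the parent strains.
Dlk1 coding exon: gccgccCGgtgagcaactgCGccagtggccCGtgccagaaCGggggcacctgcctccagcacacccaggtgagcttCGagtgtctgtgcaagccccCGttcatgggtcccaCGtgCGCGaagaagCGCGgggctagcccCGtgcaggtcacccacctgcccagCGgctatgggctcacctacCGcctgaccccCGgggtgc
Meg3 start: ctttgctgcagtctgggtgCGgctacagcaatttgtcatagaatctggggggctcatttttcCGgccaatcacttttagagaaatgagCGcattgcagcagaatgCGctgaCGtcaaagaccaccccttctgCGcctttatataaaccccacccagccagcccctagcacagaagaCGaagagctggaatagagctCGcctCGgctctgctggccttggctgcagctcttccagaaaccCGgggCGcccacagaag
Meg3 exon: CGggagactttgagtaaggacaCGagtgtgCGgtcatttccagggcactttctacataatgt

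For Igf2, an intronic stretch that also lies in the antisense gene Igf2as is shown (chr7:149851376-149851666, minus strand), and for Rasgrf1 the more distal (chr9:89772909-89773159) and the nearer (chr9:89780640-89780925) of its upstream blocks, on the plus strand.
Igf2 intron: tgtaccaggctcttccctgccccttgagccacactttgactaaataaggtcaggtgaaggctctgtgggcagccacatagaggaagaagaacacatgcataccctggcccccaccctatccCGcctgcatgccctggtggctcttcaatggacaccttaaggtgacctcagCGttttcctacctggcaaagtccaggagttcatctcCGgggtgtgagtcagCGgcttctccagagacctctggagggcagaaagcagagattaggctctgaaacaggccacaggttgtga
Rasgrf1 distal block: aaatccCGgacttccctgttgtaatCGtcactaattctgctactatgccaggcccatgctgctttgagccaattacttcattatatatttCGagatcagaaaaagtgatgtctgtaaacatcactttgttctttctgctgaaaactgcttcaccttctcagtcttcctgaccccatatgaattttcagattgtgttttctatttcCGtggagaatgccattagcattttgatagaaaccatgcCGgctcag
Rasgrf1 nearer block: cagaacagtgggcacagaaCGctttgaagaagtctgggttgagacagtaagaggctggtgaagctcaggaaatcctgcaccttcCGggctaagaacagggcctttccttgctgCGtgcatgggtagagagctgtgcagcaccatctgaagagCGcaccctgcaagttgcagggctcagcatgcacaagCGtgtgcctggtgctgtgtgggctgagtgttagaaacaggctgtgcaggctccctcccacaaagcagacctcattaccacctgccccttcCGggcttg
The GC content of these 8 stretches ran from 40.6% in the distal Rasgrf1 block to 70.6% in the Dlk1 exon. None held the CTCF-type letters within 300 bases around its middle.

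The libraries differed in ways that touch these loci. Mean reads per CG with at least 10 reads ran from 51.6 to 96.3. The farthest covered CG from an MspI site, called the reach here, was 100 bases for 3 libraries (both female parents and the BXD male), 76 for both male parents and 50 for the other 3 F1 libraries. The DBA male had the fewest CGs of any mouse at H19 (6), Igf2 (53), Meg3 (20) and Rasgrf1 (27). At Dlk1 it had 44, above the B6 male (32) and the DXB female (42). Values are therefore also given over the 7 mice without it. Reads sorted by SNP within 500 kb of the Dlk1, Meg3 and Rasgrf1 windows were 99.3 to 100% B6 in the B6 parents and 0.229 to 0.915% B6 in the DBA parents, and there were none within 500 kb of H19 or Igf2, so the labels could not be checked there. No CG was covered near the starts of the hepatocyte genes Alb, Apoa1, Ttr and Serpina1a or the blood cell genes Ptprc, Cd79a and Cd3e, so the tissue label was not checked by markers. The starts of Myod1 and Neurod1, muscle and neuron genes, averaged 9.09% and 2.84%.

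Intermediate methylation made up a larger share of CGs at the 5 loci than over the autosomes. Of the 74 CGs covered in 8 mice, 10 (13.5%) lay between 25 and 75% in every mouse, against 4.58% of 173739 autosomal CGs. They were 2 of 5 at H19, 3 of 26 at Igf2, 4 of 13 at Dlk1, 1 of 12 at Meg3 and 0 of 18 at Rasgrf1. Without the DBA male the count was 31 of 168 (18.5%), against 5.79%, and Meg3 rose to 10 of 34 and Rasgrf1 to 6 of 66. Among CGs covered in at least 3 mice, 78 of 434 (18.0%) were in this range in every covered mouse, against 5.89%. These shares are a description, as the loci were chosen for imprinting.

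**Figure D1:**
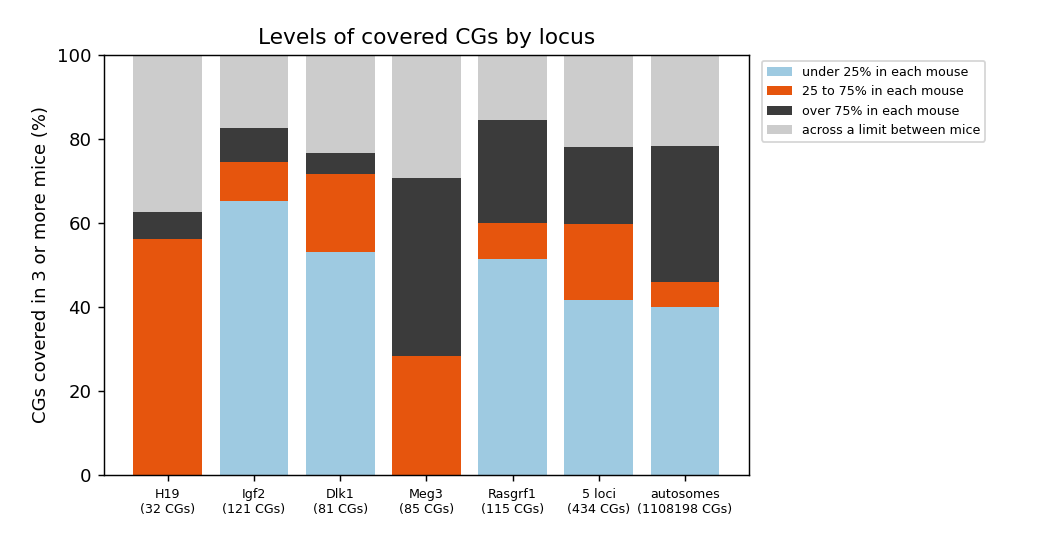
Share of CGs covered in at least 3 mice (y axis, percent) that were under 25%, between 25 and 75%, or over 75% in every covered mouse, or crossed a limit between mice, for each locus, the 5 loci together and all autosomes. The range from 25 to 75% held 56.2% of the CGs at H19, 28.2% at Meg3, 18.5% at Dlk1, 9.09% at Igf2 and 8.70% at Rasgrf1, beside 5.89% of autosomal CGs.

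The loci differed in what surrounded the intermediate CGs. No CG at H19 or Meg3 was under 25% in every covered mouse, while 79 of 121 at Igf2, 43 of 81 at Dlk1 and 59 of 115 at Rasgrf1 were, beside 40.0% of autosomal CGs. CGs over 75% in every covered mouse made up 36 of 85 at Meg3 and 28 of 115 (24.3%) at Rasgrf1 and 2 of 32 at H19, beside 32.3% of autosomal CGs. Over the CGs shared by 8 mice, the mean level was 66.4% ± 3.57 at H19, 19.8% ± 1.053 at Igf2, 32.7% ± 4.27 at Dlk1, 76.2% ± 5.20 at Meg3 and 9.51% ± 1.15 at Rasgrf1 (SD, n = 8). That of all shared autosomal CGs was 43.2% ± 0.460 (SD, n = 8). These means follow which CGs MspI reaches at each locus, so their order says nothing of the loci as wholes.

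**Figure D2:**
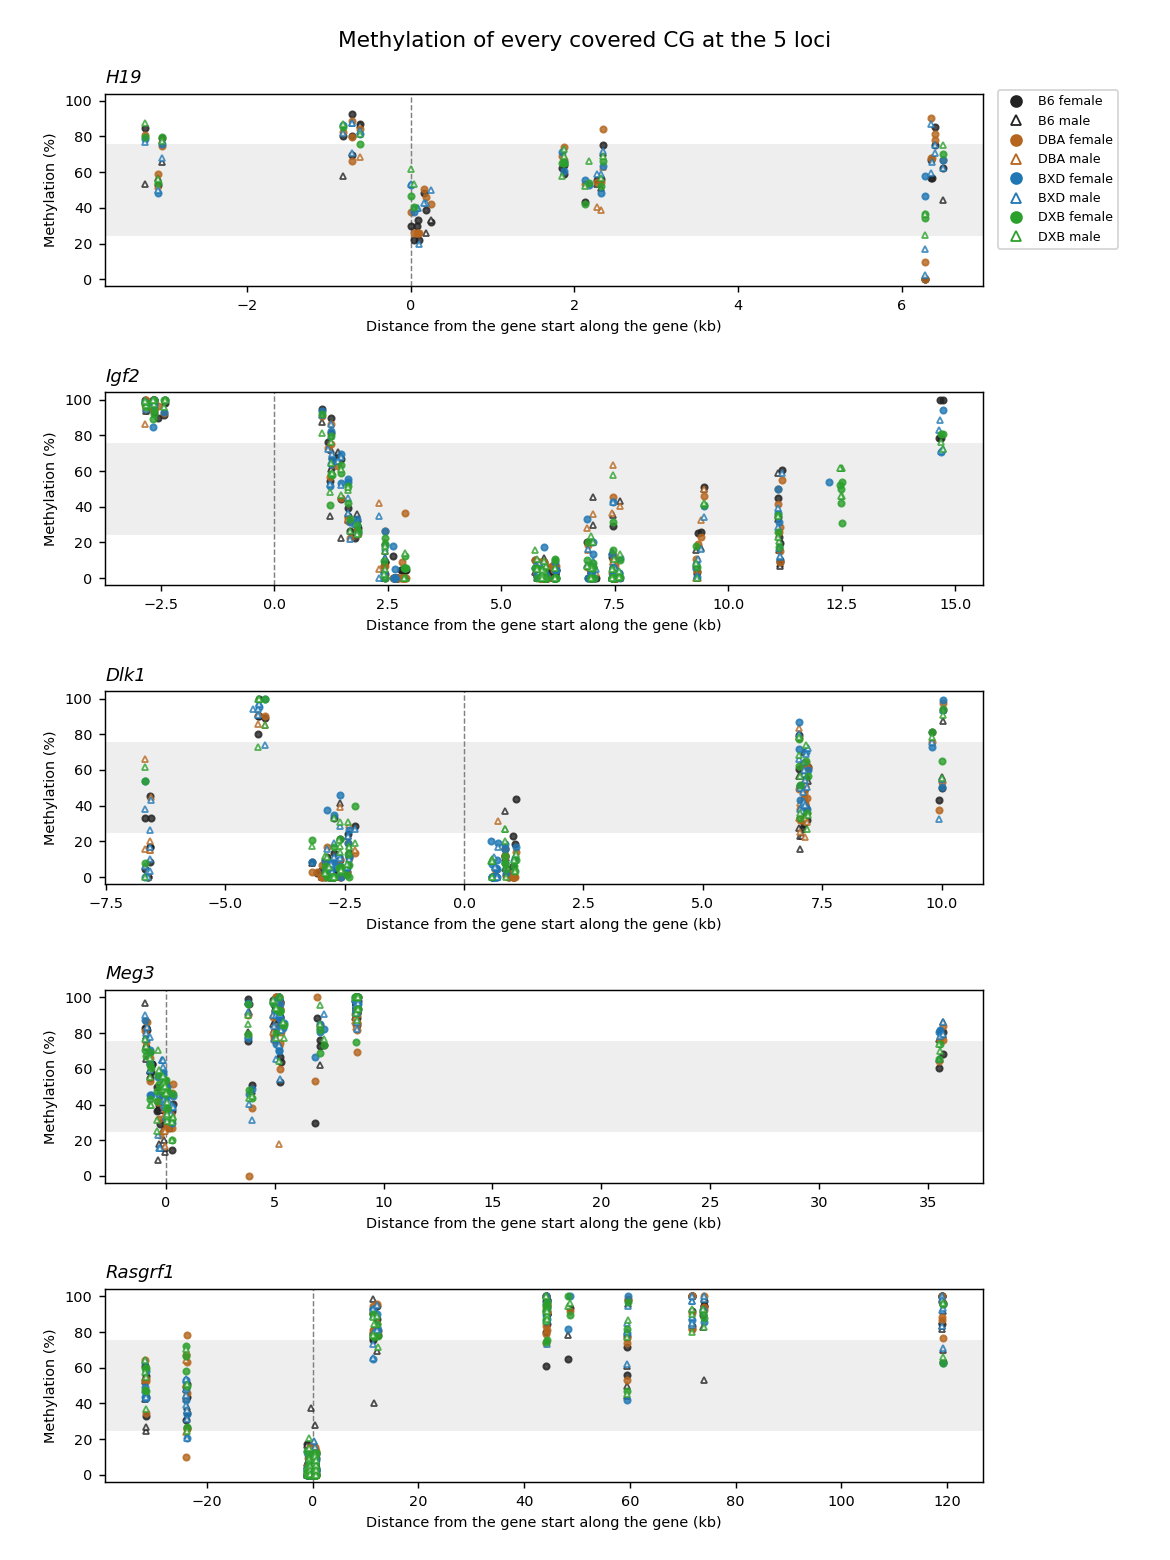
Methylation level (y axis, percent) of every CG with at least 10 reads against its distance from the gene start along the gene (x axis, kb), 1 panel per locus and 1 symbol per mouse, with the range from 25 to 75% shaded. Intermediate levels stand upstream and in the body of H19, just inside Igf2, in a coding exon of Dlk1, at the start of Meg3 and far upstream of Rasgrf1.

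The spread between mice at the intermediate CGs was set beside that of other such CGs. Over the 7 mice, the median SD was 7.89 points at the 31 CGs of the 5 loci and 7.29 points at 19673 autosomal CGs in the same range. Counting of reads alone gives 5.89 and 5.74 points, at median depths of 80 and 86 reads. Both strands were read at 40 CGs of any level, among them near unmethylated and near fully methylated ones, where differences can only be small. The strand means over mice differed by a median of 2.87 points, and by at most 10 points at 34 of them. Where both means lay between 25 and 75%, they differed by 17.8 points at 7098 bases in the Dlk1 exon (58.1% and 40.4%). At the others in this range they differed by at most 3.44 points. Only 1 run of at least 3 consecutive CGs, with strands added and no gap over 500 bases, stayed between 25 and 75% in all 8 mice, and it lay in the Dlk1 exon.

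At H19 (ENSMUSG00000000031.9, chr7:149761434-149764048, minus strand), intermediate levels stood in the upstream control region and in the RNA. The CG at -3087 bases (chr7:149767135), the middle capital pair of the upstream block, was at 52.5% and 56.5% in the B6 female and male, and at 59.0% and 52.2% in those of DBA. In the F1 mice it was at 48.1% (BXD female), 50.2% (BXD male), 53.8% (DXB female) and 56.0% (DXB male). It was the tightest of the 10 CGs (53.5% ± 3.57, SD, n = 8), and the exact 95% interval of every mouse held this mean. At -3044 bases the levels ran from 65.9 to 79.5% in the 8 mice. At -3244 bases they ran from 53.6% in the B6 male to 87.7% in the DXB male, in the 7 mice with enough reads. Over the 3 CGs, the mean was 68.5% ± 5.25 (SD, n = 7), lowest in the B6 male (58.7%) and between 64.9 and 73.7% in the other 6.

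Closer to the gene, the 5 CGs from -833 to -625 bases were mostly high, with means from 68.6 to 89.6%. At the start, the 8 CGs from -1 to 245 bases were lower, with means from 22.8 to 47.4%. The CG at -1 bases was at 29.6% in the B6 female and 37.5% in the DBA female, and at 52.6, 53.3, 46.7 and 61.8% in the F1 mice (BXD female, BXD male, DXB female, DXB male), on 15 to 38 reads. The F1 mice were here above the 2 female parents, the only parents with enough reads, which was not tested. At 98 bases the BXD male (20%) was below these females (22.2% in B6 and 26.1% in DBA). Except for the BXD male, the F1 libraries had a shorter reach than any parent. In the body, 8 CGs from 1851 to 2348 bases had means from 49.4 to 70.4%. Of these, the CG at 2326 bases was intermediate in all 8 mice, lowest at 38.8% (DBA male) and highest at 58.8% (BXD male; 52.1% ± 6.31, SD, n = 8). The means over mice thus fell from above the middle upstream to below it at the start and rose again toward the end of the RNA.

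Downstream of H19, a pair of CGs split by library type. At 6284 bases the level was 0% of 30 reads in the B6 female, 0% of 53 in the DBA female and 2.13% of 47 in the BXD male, the libraries with a reach of 100 bases. These counts of 0 allow up to 10% and 5.66% as 3 counts of the total, with exact 95% upper limits of 11.6% and 6.72%. It was 46.4% in the BXD female, 34.5% in the DXB female and 25% in the DXB male, whose reach was 50 bases. The next CG, at 6281 bases, had 0%, 9.43% and 17.0% against 57.7%, 36.7% and 36.4%. These groups did not overlap, but the 2 CGs are neighbours that can share reads and were picked after their values were seen. How often these libraries split so over all CGs was not counted. The B6 male had 2 methylated of 7 reads at each, too few for a level. A part of read reach in this split was not tested.

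At Igf2 (ENSMUSG00000048583.9, chr7:149836673-149852721, minus strand), methylation changed from near complete to near none within a short distance of the annotated start. The 9 CGs from -2841 to -2400 bases had means from 94.6 to 99.7%. In the intronic stretch from 1049 to 1844 bases, the means of 15 CGs ran from 90.1% at its first CG to 27.8% at its last. Over the 9 of these CGs shared by 7 mice, the level was 58.1% in the B6 female, 49.2% in the B6 male, 55.7% in the DBA female, 60.1% in the BXD female, 59.8% in the BXD male, 54.0% in the DXB female and 54.4% in the DXB male. The B6 male was the lowest and the other 6 lay from 54.0 to 60.1%. The CG-rich stretches that follow were near unmethylated, at 3.57% ± 0.910 from 5751 to 6216 bases and 7.27% ± 1.85 from 6898 to 7622 bases (SD, n = 7).

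Further CGs of Igf2 were intermediate on their own. The CG at 1634 bases (chr7:149851087) was at 34.96, 32.8, 32% and 33.3% in the parents (B6 female, B6 male, DBA female, DBA male) and at 53.8, 44.7, 42.1 and 49.3% in the F1 mice (BXD female, BXD male, DXB female, DXB male). The parents were all below the F1 mice here, on 21 to 25 reads in DBA. On the other strand, at 1633 bases, the BXD male (36.6%) was below the B6 female (39.0%). The CG at 9474 bases (chr7:149843247) went the other way, at 50.9, 49.8, 46.0 and 50% in the parents and 40.3, 34.5, 40.9 and 41.9% in the F1 mice. A CG in a UTR at 7469 bases (chr7:149845252) ran from 29.4% to 63.6%, the widest of the 3. Its highest level rested on 11 reads, in the DBA male. It stood alone in the near unmethylated stretch from 6898 to 7622 bases, with the highest mean of the 37 CGs there (43.6%). The CG at chr7:149845256 averaged 4.78% in the parents and 1.84% in the F1 mice. In the coding exon, the means of 6 CGs between 11089 and 11149 bases fell from 44.8% at the first to 9.55% at the last. The first of them ran from 35% to 58.8% in 7 mice. The fall did not go on, as the next CG, at 11188 bases in an exon of a non-coding transcript, had a mean of 58.1%.

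At Dlk1 (ENSMUSG00000040856.11, chr12:110691033-110701546, plus strand), the CGs upstream were mostly low and those of a coding exon intermediate. From -3183 to -2296 bases the level was 10.6% ± 3.25 over 9 CGs (SD, n = 7). In the exon, 16 CGs from 7008 to 7196 bases had means from 32.1 to 77.5%. Over the 7 CGs read in all 8 mice, the level was 53.2% in the B6 female, 39.7% in the B6 male, 52.3% in the DBA female, 43.3% in the DBA male, 60.05% in the BXD female, 60.8% in the BXD male, 54.6% in the DXB female and 53.6% in the DXB male. The 2 parent males were the lowest and the 2 BXD mice the highest.

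The run of 3 CGs at the end of this exon stretch (chr12:110698198-110698229, the last 3 capital pairs of its sequence) was intermediate in every mouse, at 51.9% ± 7.34 (SD, n = 8). The level was lowest in the DBA male (39.9%), highest in the BXD male (63.9%), and from 45.1 to 56.5% in the others. Within the run the middle CG was the lowest, at 37.3% ± 7.76, between neighbours at 63.8% ± 7.46 and 54.7% ± 12.7 (SD, n = 8). The first CG of the exon stretch, at 7008 bases, varied most between mice, from 27.3% in the B6 male to 71.7% in the BXD female. In the 3′ part of the gene, a UTR CG at 10019 bases stayed from 50% to 65.2% in 7 mice.

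At Meg3 (ENSMUSG00000021268.10, chr12:110779211-110809936, plus strand), the level fell toward the start, and was already low some way before it. From -948 to -880 bases the means of 4 CGs were 72.3 to 83.9%, from -726 to -646 bases they were 51.1 to 68.4%, and from -427 to -278 bases 22.6 to 41.8%, lowest at -278 bases in the 3 mice covered there. From -193 to -38 bases they were 32.7 to 50.6%, and from 7 to 315 bases 23.8 to 42.2%. Inside the gene the level rose again, to 95.4% ± 1.44 from 8675 to 8826 bases (SD, n = 7). Over the 17 CGs of the start region shared by 7 mice, the level was 44.7% in the B6 female, 38.4% in the B6 male and 44.3% in the DBA female. It was 55.8% in the BXD female, 48.1% in the BXD male, 51.4% in the DXB female and 52.7% in the DXB male. The parents were all below the F1 mice, and the BXD male, the only F1 library with a reach of 100 bases, was the lowest of the F1 mice.

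**Figure D3:**
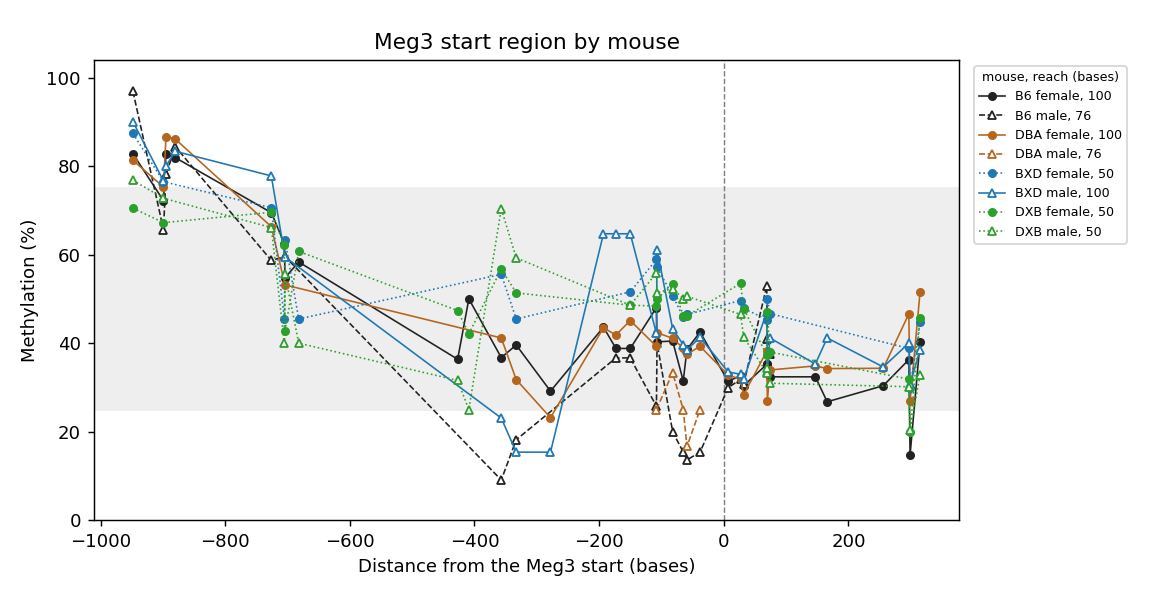
Methylation level (y axis, percent) of CGs at the start of Meg3 against distance from the start (x axis, bases), 1 line per mouse, with solid lines for libraries with a reach of 100 bases, dashed for 76 and dotted for 50. From -82 to -38 bases the B6 male and the DBA male lie lowest, and at 27 and 32 bases the 3 libraries with a reach of 50 bases lie above the others.

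The CG at -108 bases was the only one of Meg3 that was intermediate in all 8 mice. It was at 48.0% in the B6 female, 25.8% in the B6 male, 39.3% in the DBA female and 25% (of 12 reads) in that male, against 58.9%, 42.2%, 48.4% and 55.8% in the BXD female, BXD male, DXB female and DXB male. At 27 bases the level was 31.8 to 32.95% in the 4 covered libraries with a reach above 50 bases and 46.5 to 53.5% in the other 3. The CG at 32 bases split likewise, and those at 69 and 70 bases did not. At 69 bases the libraries with a reach of 50 bases were from 33.3 to 45.3% and the others from 35.2 to 52.9%. The part of read reach in this was not tested, and how often libraries split so over all CGs was not counted. The intergenic control region is known to lie further upstream than the window. Between 20 and 10 kb upstream, 3 CGs had enough reads, and those at -12155 and -12131 bases were at 85.1 to 96.0% in 5 mice, while the CG at -12376 bases ran from 22.2 to 71.4% in 6.

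At Rasgrf1 (ENSMUSG00000032356.6, chr9:89804613-89921814, plus strand), 2 separate blocks far upstream were intermediate. In the distal block, from -31698 to -31460 bases, the level over 4 shared CGs was 47.7% in the B6 female, 36.6% in the B6 male, 51.0% in the DBA female, 48.6% in the BXD female, 50.5% in the BXD male, 53.4% in the DXB female and 53.4% in the DXB male. All but the B6 male lay from 47.7 to 53.4%. In the nearer block, from -23993 to -23694 bases, the level over 3 shared CGs was 39.8, 43.8, 52.1, 32.2, 36.8, 49.7 and 48.6% in the same order, so the mice were more spread (43.3% ± 7.35 against 48.7% ± 5.79, SD, n = 7). At -23889 bases the DBA female (67.2%), DXB female (72.3%) and DXB male (70.3%) were above the B6 female (49.4%), B6 male (48.0%), BXD female (41.8%) and BXD male (53.3%). This order was seen in the values and was not tested. The last CG of the block, at -23694 bases, was at 68.9% of 45 reads in the DBA male and at 25.9% of 166 in the DBA female.

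The Rasgrf1 promoter was unmethylated, at 3.86% ± 0.344 over 23 CGs from -1003 to -361 bases and 4.03% ± 0.813 over 21 CGs from 238 to 642 bases (SD, n = 7). The gene body was high, at 82.4% ± 3.96 from 11426 to 12303 bases and 92.3% ± 2.47 from 44148 to 44395 bases (SD, n = 7). Within the body, a CG at 59473 bases in an intron ran from 42.0 to 62.3% in the 7 mice.

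**Figure D4:**
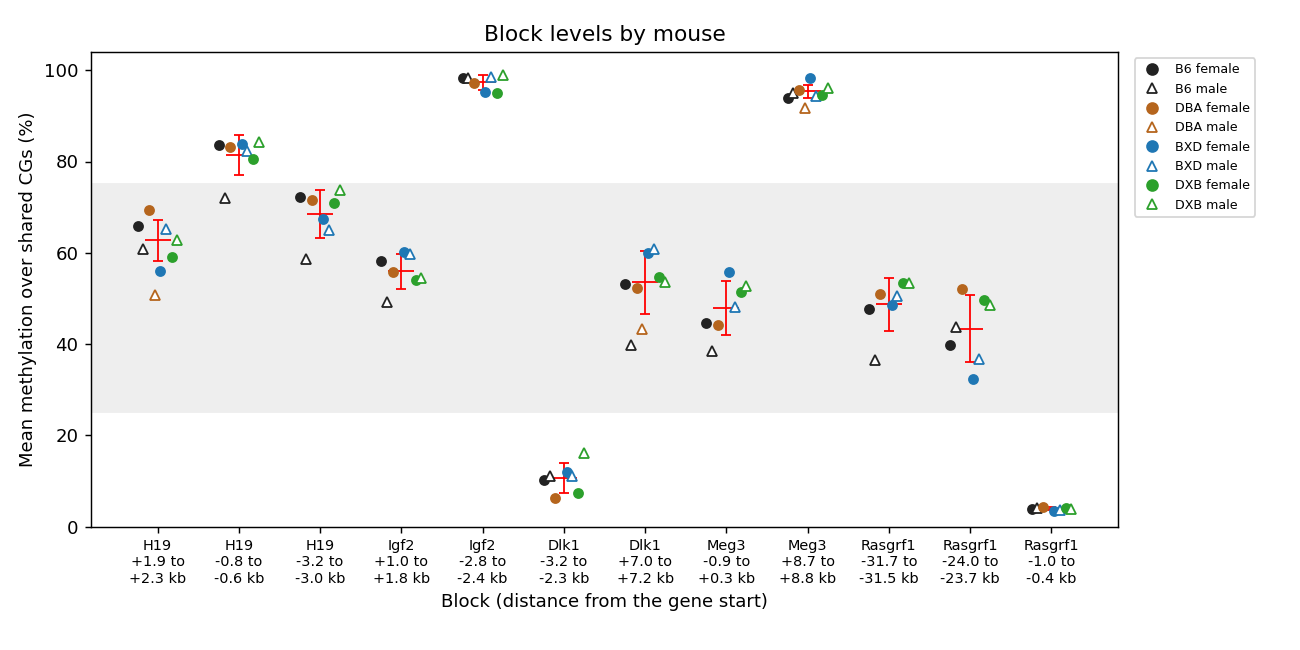
Mean methylation over shared CGs (y axis, percent) of 12 blocks by mouse, ordered by gene and labelled with the distance from the gene start. Red marks give the mean ± SD of 7 mice, without the DBA male, which is drawn only where it read all the shared CGs of a block. Blocks of H19, Igf2, Dlk1, Meg3 and Rasgrf1 stand within the shaded range from 25 to 75%, and the B6 male is the lowest of the 7 mice in most of these.

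The B6 male was the lowest of 7 mice in 14 of 29 blocks with shared CGs, and the highest in 2. The next were the BXD female and the DXB female, lowest in 5 blocks each. Blocks with as few as 1 shared CG were counted, and no such count was made outside the 5 loci. Over each library's own CGs in the whole data set, the B6 male averaged 44.7%, above only the DBA male (35.8%). Over the autosomal CGs shared by 8 mice, means ran from 42.6 to 43.8%, lowest in the DXB male.

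The parent strains were then compared within each sex, which shows whether the levels follow strain. A CG was called where the exact 95% binomial intervals of B6 and DBA were separate and the levels differed by over 50 points. Among the female parents, 1 of 414 CGs of the 5 loci was called, beside 0.531% of 887174 CGs. Among the male parents, 0 of 113 were called, beside 0.413% of 323010. The median absolute difference at the 5 loci was 2.98 points in the females and 4.35 points in the males. Over all CGs it was 2.50 and 2.04 points. There was 1 mouse on each side, so the intervals cover counting error only.

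The called CG lay in an exon of Meg3, at 3800 bases (chr12:110783011). It was at 96.3% of 107 reads in the B6 female (95% interval 90.7 to 98.97%) and 0% of 185 reads in the DBA female (exact upper limit 1.97%, or 1.62% as 3 counts of the total). The B6 male was at 91.95% of 87 reads, and the DBA male had 0 methylated of 9 reads, too few for a call. The F1 mice were in the middle, at 45.7% (BXD female), 40.2% (BXD male), 48.1% (DXB female) and 43.9% (DXB male). Both cross directions gave the same middle levels, with overlapping intervals. The CG 8 bases upstream, at 3792 bases, was at 75.7% in the B6 female and 78.3% in the DBA female, and at 77.3 to 85.4% in the F1 mice. Whether DBA carries another base at this CG was not tested, and the authors left C/T differences out of their SNPs.

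**Figure D5:**
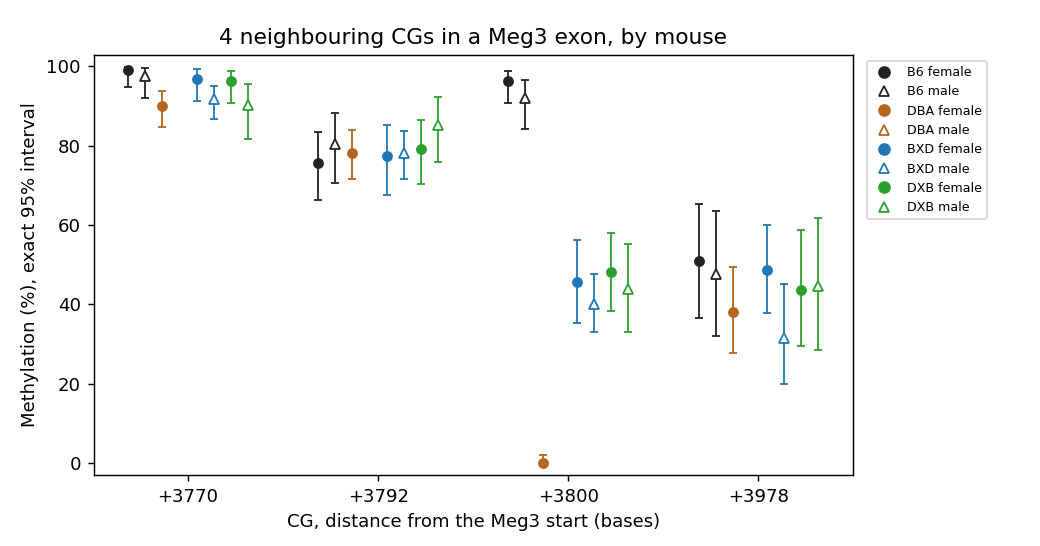
Methylation level (y axis, percent) with exact 95% intervals at 4 neighbouring CGs in a Meg3 exon (x axis, distance from the start in bases), by mouse, with at least 10 reads, which leaves out the DBA male. At 3800 bases the B6 mice are at 96.3 and 91.95%, the DBA female at 0% and the F1 mice from 40.2 to 48.1%, while at 3792 bases all 7 mice are from 75.7 to 85.4%.

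No difference between females and males passed adjustment at the loci. limma, fitted to the levels of all 176951 shared CGs and adjusted by the Benjamini-Hochberg method, called 0 of 74 CGs of the 5 loci, beside 0.103% of all. Of those 182 calls 32 were autosomal, as the 5 loci are, and limma on the 173739 autosomal CGs alone called 0. At an unadjusted p below 0.05 there were 2 of 74 (2.70%), beside 4.91% of all, and a quasi-binomial model of the counts called 0 of 74 and 0 of all 176951. That limma count of 2 moved from below the share of all to above it without the DXB male, at 6 of 74 (8.11%, beside 5.54%). Without the DBA female it was 1 of 74 (1.35%, beside 5.03%). The locus level was 78.5% ± 2.86 in females and 73.8% ± 6.33 in males at Meg3 (4.72 points, SD, n = 4 and 4, exact permutation p = 0.200, adjusted 0.643). At H19 the levels were 67.6% ± 3.72 and 65.2% ± 3.47 (2.43 points, exact permutation p = 0.400, adjusted 0.667). That gap was 0.753 points without the DBA male and 4.67 with reads summed over CGs. The smallest p of these tests is 0.0286, which for a single locus of 5 adjusts to 0.143, so a locus at this p could not have passed alone. With reads summed over CGs, the gap at Meg3 turned to -3.05 points and that at Dlk1 went from 1.38 to 7.68. Without the DXB male it was 7.34 at Meg3 (exact permutation p = 0.0286, adjusted 0.143), and without the DBA male 2.98. The adjusted p of the other 3 loci was 0.643 or 0.714 over these 5 exact permutation tests.

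Mean locus levels were higher in F1 mice than in parents at Dlk1 and Meg3, but no difference passed adjustment. These levels cover all shared CGs of a locus, not the Dlk1 exon or the Meg3 start alone. At Dlk1, the locus level over 13 CGs was 32.7, 26.2, 30.03 and 28.5% in the parents (B6 female, B6 male, DBA female, DBA male) and 38.0, 37.5, 32.8 and 35.8% in the F1 mice (BXD female, BXD male, DXB female, DXB male). The groups did not overlap, although the DXB female was only just above the B6 female. The difference was 6.68 points (36.0% ± 2.32 against 29.4% ± 2.73, SD, n = 4 and 4), with an exact permutation p = 0.0286, the smallest that 70 assignments can give, and 0.143 after adjustment. It was 3.54 points with at least 5 reads (exact permutation p = 0.0286) and 3.39 with at least 20 (exact permutation p = 0.400). With reads summed over CGs it was 7.38 points (exact permutation p = 0.143), and the groups overlapped, with the DBA female at 35.5% and the BXD male at 32.6%. At Meg3 the difference was 7.41 points (exact permutation p = 0.0857, adjusted 0.214). The groups overlapped there, with the BXD male at 76.21% and the DBA female at 76.26%. At H19, Igf2 and Rasgrf1 the difference was -1.053, 0.105 and -1.17 points (adjusted exact permutation p from 0.238 to 0.943). With summed reads, Igf2 came to 6.93 points (exact permutation p = 0.0571, adjusted 0.286), and with at least 20 reads Rasgrf1 came to -6.20 over 4 CGs (exact permutation p = 0.0286, adjusted 0.114). Without the DBA male, Rasgrf1 was at -0.521 points and H19 at -3.31.

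For single CGs, limma called 0 of 74 and 0% of all 176951 CGs between F1 mice and parents, as did the quasi-binomial model. Over all CGs, limma called 283 of 177132 without the BXD male, 34 of 177202 without the B6 female and 2 of 198176 without the B6 male. The calls at the 5 loci stayed at 0. At an unadjusted p below 0.05 there were 13 of 74 (17.6%), beside 7.26% of all. They included 4 of the CGs from -108 to -59 bases at Meg3, with differences of 16.2 to 18.8 points, and 4 in the Dlk1 exon, with differences of 11.1 to 24.6 points. Neighbouring CGs can lie on the same reads, so the 13 are not separate results. The count was 8 of 74 (10.8%, beside 5.61%) without the DXB male and 15 of 74 (20.3%, beside 8.74%) without the B6 female. Without the DBA male it was 18 of 168 (10.7%, beside 6.38%). The 2 Igf2 CGs with opposite directions were at 14.2 points (SE 2.53) and -9.76 points (SE 1.89), with limma adjusted p of 0.462 and 0.492.

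The same comparison by block, in the 7 mice without the DBA male, gave 9.57 points at the Meg3 start and 8.85 points in the Dlk1 exon (exact permutation p = 0.0286 each, the smallest that 35 assignments can give, adjusted 0.829 over 58 block tests). Without the B6 male as well, the differences were 7.57 and 4.50 points (exact permutation p = 0.0667 and 0.133), where 0.0667 is the smallest that 15 assignments can give. Of the 4 F1 libraries 3 had a reach of 50 bases, which no parent had. Within the libraries of 100 bases, the BXD male was above the mean of the B6 and DBA females by 3.68 points at the Meg3 start and by 8.05 points in the Dlk1 exon. This F1 mouse was male and both parents were female, so generation cannot be told apart from sex there, nor from read reach in the other libraries.

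The level on the paternal and maternal chromosome could not be compared. Of the 506 CGs, 2 had a read that a SNP assigned to a chromosome, both in Meg3, and none had at least 10 such reads for each chromosome in all 4 F1 mice, nor at least 4. At 5072 bases (chr12:110784283) the BXD male had 12 of 18 methylated reads on the maternal B6 chromosome and 7 of 11 on the paternal DBA chromosome, or 66.7% and 63.6%. The DXB male had 4 of 5 on the paternal B6 chromosome and 1 of 3 on the maternal DBA chromosome. In both F1 females all of their 1 to 3 reads on each chromosome were methylated. These reads are too few to compare. The nearest CG with sorted reads was 24240 bases from the Rasgrf1 window, 4371 from that of Dlk1 and 1894469 from that of H19.

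Neighbouring genes of the same clusters had a share of intermediate CGs near that of all autosomal CGs. In windows of the same extent around 19 neighbours, 14 of 281 CGs (4.98%) were intermediate in each of the 7 mice, beside 5.79% of all. Single genes were uneven, with 0 of 32 at Yy1 and 4 of 32 at Th, and among those with few CGs 2 of 7 at Rian, a non-coding RNA downstream of Meg3, and 1 of 4 at Lsp1. Windows within 1 kb of any transcript start were taken for 22 genes listed for a maternally methylated promoter, of which 19 were annotated. In these, 52 of 215 CGs (24.2%) were intermediate, in 15 genes with covered CGs. Every annotated start was used, so the share is not that of maternally methylated promoters alone. Single genes were uneven, with 22 of 48 at Gnas, a G protein subunit, and 12 of 23 at Zrsr1, but 2 of 37 at Grb10 and 0 of 22 at Inpp5f. CGs near the starts of 2 listed genes were counted once in the total, and no test was made of the shares.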

How the data were processed

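The authors digested liver DNA with MspI, selected fragments by size, aligned reads to mm9 with BS Seeker, kept unique reads and sorted those with a SNP to B6 or DBA. No source used here gives the aligner's version. The authors deposited raw counts of methylated and unmethylated reads for each cytosine and class of reads. Tables of their own comparisons, which hold mean levels, differences and p-values, were not used.

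Counts were added over classes, and each strand of a CG was 1 site. Levels needed at least 10 reads. Positions and genes are those of mm9 (NCBIM37) and GENCODE M1. Sites named singly were calls, or the lowest, highest, first or last CGs of intermediate stretches, and others were named after their values were seen. Blocks were runs of at least 3 CGs covered in at least 3 mice with no gap over 500 bases, added after the data were seen. Members and lists were chosen with earlier results of these data known.

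Exact permutation tests were two-sided. limma 3.58.1 in R 4.3.3 gave the tests over CGs, and Python 3.11.15 with scipy 1.17.1 the others. On simulated data with 200 of 20000 CGs changed by 60 points between the sexes, limma called 165 and 46 unchanged ones, and the quasi-binomial model 200 and 0. With a change of 30 points, limma called 130 and 31 unchanged ones, and the quasi-binomial model 155 and 0. The simulated mice of a group differed by counting of reads alone, whereas the real mice were more spread. These counts therefore do not show what either test would recover in the real data. Intervals and limits of 0 counts cover counting error only, and a level of 10 reads moves in steps of 10 points. PCR duplicates were not marked. Alternatives covered read minima, the range for intermediate levels, both strands added, other tests and leaving out each mouse.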

Additional observations from a re-analysis of the deposited data

Results flagged for a closer look

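The female minus male level of H19 pointed opposite ways in parents and F1 mice, at 4.02 points in B6 and 11.2 in DBA, against -2.81 in BXD and -2.68 in DXB. The means of the 2 generations were 10.3 points apart, and the difference was not tested. It rests on 5 CGs, and the DBA male had only 16 reads at -625 bases and 23 at -3087 bases. The rule looked at signs alone at each of the 5 loci, and how often chance gives such a pattern was not worked out.

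Of 90 groups of 4 mice tested over the locus levels and the blocks, 5 had a mouse far from the others. Chance gives about 1 in 20 groups, so this count is near the chance rate, but the groups share mice and are not separate trials. Among F1 mice, the BXD female was at 39.3% in the coding exon of Igf2 (others 26.2 to 28.4%), the BXD male at 60.4% in the Meg3 exon block from 3770 to 3978 bases (others 66.1 to 67.2%) and the BXD female at 4.50% in the Rasgrf1 block from 238 to 642 bases (others 3.69 to 3.82%). Among females, the BXD female was at 81.4% downstream of Meg3 (others 69.8 to 70.6%) and the DBA female at 86.03% downstream of Rasgrf1 (others 79.2 to 79.8%).

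Outside CG, the share of reads that kept a cytosine, pooled over 8 mice, was 0.607% at H19, 0.589% at Igf2, 0.683% at Dlk1, 0.637% at Meg3 and 0.615% at Rasgrf1. The share over all such cytosines was 0.677%, above 4 of the 5 loci, and no control for conversion was used here. With 787 to 1533 such reads at each locus, being above what a count of 0 allows says nothing of methylation outside CG.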

How the results depend on the processing

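The count of 10 intermediate CGs was 4 with a range of 30 to 70% (5.41% of 74, beside 2.35% of autosomal CGs), 78 with coverage in at least 3 mice and 10 to 31 when each mouse was left out, the highest without the DBA male. With both strands added the count stayed at 10, of 79, but Meg3 then had 0 of 12 and Rasgrf1 1 of 19. The 1 intermediate stretch became 0 with at least 5 CGs or a range of 30 to 70%, 8 with coverage in at least 3 mice and 1 to 2 without each mouse. Calls between male parents went from 0 of 113 to 2 of 166 with at least 5 reads, beside 0.466% of 489046 CGs. Of 16 reversed directions, all were of differences that passed no test. Between sexes, they were Igf2 (-0.18) and Rasgrf1 (0.87) with at least 5 reads, and Meg3 (-3.05) with reads summed over CGs. Without single mice, the differences ran from -0.23 to 0.66 at Igf2 and from -0.56 to 3.21 at Dlk1. Between F1 mice and parents, they were Igf2 (-1.74) and Rasgrf1 (0.030) with at least 5 reads, and ran from -3.31 to 0.42 at H19 and from -0.29 to 0.59 at Igf2 without single mice. No Meg3 CG had 20 reads in 8 mice, so that minimum gave it no value. Between sexes, Rasgrf1 went from -0.976 to -3.82 with at least 20 reads and to -0.294 without the DBA male, and Dlk1 from 1.38 to 0.463 with at least 5 reads, with no call in any. The cause was not tested. The comparison of chromosomes and that between stretches gave no value, since no CG had enough sorted reads and only 1 stretch was found.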
